A study of Mus musculus with 37 samples.

Results

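The 7 transcripts considered here, of the tissue factor and plasminogen system, were followed in mouse jejunal organoids. They are 7 of the 31533 genes listed in the 3 count tables of the study. The genes are F3 (tissue factor), Plaur (urokinase receptor), Plau (urokinase), Plat (tissue plasminogen activator), Plgrkt (plasminogen receptor with a C-terminal lysine), Tfpi (tissue factor pathway inhibitor) and Cd55 (decay-accelerating factor), each taken by its symbol. They were chosen on measured values: the differences between VIP-treated and untreated whole organoids for F3 and Plaur, and the 72 h VIP difference in sorted cells for Plgrkt, were known beforehand. For the members these 2 comparisons are therefore given as a description, without p-values. Tests of members are given only in an irradiation experiment on other mice. That experiment was taken as not used in the choice, but the exact values behind the choice were not recorded. The p-values of the members rest on this assumption.

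Tissue factor is the membrane protein that binds factor VII and starts the extrinsic clotting cascade, and tissue factor pathway inhibitor blocks this complex. Urokinase and tissue plasminogen activator cut plasminogen to the protease plasmin. The urokinase receptor and Plgrkt hold protease and substrate at the cell surface, where plasmin acts on matrix and growth factor precursors. Cd55 speeds the decay of complement convertases and shields host cells. In epithelia the urokinase receptor is known for its induction in cells that close a wound.

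Organoids were grown from jejunal crypts of male and female mice aged 6 to 12 weeks. Vasoactive intestinal peptide (VIP), a neuropeptide that raises cAMP in epithelial cells through its VPAC receptors, was added at 100 nM. Whole organoids of C57Bl/6 mice, all without irradiation, were left untreated (3 cultures) or treated with VIP for 72 h (4 cultures). Lgr5-EGFP+ cells, sorted for the fluorescence of the Lgr5 reporter allele Lgr5-EGFP-IRES-CreERT2 that all of these cultures carried, came from 4 untreated and 4 VIP-treated cultures in a first experiment of 72 h. In a second experiment the same reporter allele was present and the cultures of 4 further mice each gave 4 conditions: neither treatment, VIP alone, irradiation with 6 Gy alone, and irradiation followed by VIP for 48 h. Each mouse stands for 1 organoid line, its cultures share its number, and mouse numbers denote different mice in different experiments.

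Reads were counted as unique molecular identifiers (UMIs) at the 3′ end of transcripts, so that a count does not grow with transcript length, and levels are given as CPM, the UMIs of a gene per 1000000 UMIs of the sample. Totals were 3722716 to 6330404 UMIs per whole-organoid culture, 575242 to 1104126 per sample in the first sorted experiment and 1075715 to 1876729 in the irradiation experiment. The summed level of 7 epithelial markers was 4886 to 8829 CPM over all samples, and fibroblast, leukocyte and endothelial lists summed to 3.17 to 74.2 CPM. Lgr5 itself averaged 20.4 to 29.1 CPM in the sorted cells of the irradiation experiment and 34.9 and 46.8 CPM in the first sorted experiment. In whole organoids it averaged 77.5 and 93.1 CPM. Only the sorted cells carried the Lgr5 reporter allele, so genotype, sorting and experiment cannot be told apart in these levels. The sum of 8 stem cell markers ranged from 2478 to 6952 CPM in sorted cells and from 2061 to 4348 CPM in whole organoids. These levels come from separate experiments and no test was made between them. In bulk RNA, fewer cells of a type and less RNA per cell cannot be told apart.

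The 2 libraries of a culture stood apart and have to be named before the whole-organoid values. For 6 of the 7 whole-organoid cultures a pair of libraries was sequenced and summed. In the library labelled TR2 of mouse 3 with VIP, meaning its second technical replicate, F3 was at 23.7, Plaur at 11.4, Cd55 at 11.4 and Plat at 6.13 CPM, all within the range of the untreated libraries and below every other VIP library. Its Plgrkt level of 231 CPM was above all others. Over all genes its counts differed from the first library of the same culture with a chi-square of 21.7 per degree of freedom, against 1.15 to 3.18 for the other 5 such pairs and 2.52 to 3.43 between it and the untreated libraries of mice 1 and 2. It was further from the VIP libraries of the other mice (4.43 to 9.60) and from the untreated library of its own mouse (14.1). The first library of this culture, which had the highest F3, Plaur and Cd55 of all, was far from both the VIP libraries of the other mice (13.2 to 24.5) and the untreated libraries (11.3 to 28.2). Its nearest library was the untreated one of its own mouse (11.3). That untreated library was itself far from the untreated libraries of mice 1 and 2 (12.1 to 20.5). The members' differences are therefore given without the second library beside the value with all libraries, and then without the first.

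The promoter sequences of F3 and Plaur are shown because these 2 members were high in the same conditions, with VIP in whole organoids and after irradiation in sorted cells. RefSeq promoter windows (GRCm38.p6) were found for 5 of the 7 members, F3, Plaur, Plgrkt, Tfpi and Cd55. F3 lies on chr3:121723537-121735048 (plus strand) and Plaur on chr7:24462484-24475968 (plus strand). The 250 bases before the start are printed 5′ to 3′, on the plus strand, for F3 at chr3:121723287-121723536 and for Plaur at chr7:24462233-24462482, with matches to the AP-1 motif TGANTCA in capitals.
F3 promoter: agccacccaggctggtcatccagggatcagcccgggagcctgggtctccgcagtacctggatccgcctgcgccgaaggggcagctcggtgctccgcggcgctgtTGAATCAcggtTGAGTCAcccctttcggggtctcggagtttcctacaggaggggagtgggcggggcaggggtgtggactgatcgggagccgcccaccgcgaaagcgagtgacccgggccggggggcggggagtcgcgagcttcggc
Plaur promoter: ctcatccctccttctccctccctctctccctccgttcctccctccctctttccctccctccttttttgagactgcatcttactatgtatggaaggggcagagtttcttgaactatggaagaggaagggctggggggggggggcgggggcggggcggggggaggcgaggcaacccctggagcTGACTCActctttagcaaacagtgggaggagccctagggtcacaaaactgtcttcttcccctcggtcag

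F3 held TGAATCA at −146 and TGAGTCA at −135, counted from the start, and Plaur held TGACTCA at −69. On either strand, 6.75% of 32851 mouse promoter windows of this length held a match to this motif. It was not the only motif matched in both windows. The SP1 motif GGGCGG matched 3 times in F3 and 3 times in Plaur, and was in 32.7% of all windows. The EGR1 motif GNGGGNG matched 3 times in F3 and 18 times in Plaur, overlaps counted, and was in 60.3% of all windows. The full cAMP response element TGACGTCA was present in 1.55% of all windows and in none of the 5 members' windows. Its core TGACG stood at −23 in the Cd55 window and in 17.8% of all windows. A match is a description of letters, not of binding.

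In whole organoids VIP went with higher F3, Plaur, Cd55 and Plat and with lower Plgrkt. F3 was 19.6, 21.4 and 23.1 CPM in the untreated cultures and 59.8, 71.1, 65.1 and 58.4 CPM with VIP. The groups were far apart, and the fitted difference was 3.05-fold (log2 1.61, SE 0.12). Without the second library of VIP-treated mouse 3 it was log2 1.77. Mouse 4 had no untreated culture and, with the mouse as a term of the fit, added nothing to the whole-organoid differences. They rest on 3 mice, of which mouse 3 is 1.

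Plaur, the receptor that localizes urokinase, was 11.3, 17.6 and 15.6 CPM in untreated cultures and 33, 35.8, 44.4 and 28.7 CPM with VIP. Every VIP culture was above every untreated culture, with a difference of log2 1.34 (SE 0.15), or log2 1.53 without that library. Plat, an activator of plasminogen, was 5.20, 5.71 and 3.22 CPM untreated and 10.4, 13.9, 8.37 and 10.4 CPM with VIP. It too did not overlap between the groups, at log2 1.20 (SE 0.22) and log2 1.25 without that library. The other activator, Plau, had 1 UMI in all 7 cultures together, and 0 counts in the untreated cultures.

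Cd55 was 17.8, 11.4 and 8.33 CPM untreated and 25.6, 36.2, 36.5 and 22.8 CPM with VIP. The difference was log2 1.35 (SE 0.23), and log2 1.49 without that library. Cd55 counts carry an uncertainty, since the antisense transcript Gm16083 overlaps the gene and a close paralog, Cd55b, lies on the same chromosome.

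Plgrkt, the most abundant member, was 218, 215 and 217 CPM untreated and 155, 171, 141 and 188 CPM with VIP. All VIP cultures were below the untreated ones, with a 1.40-fold lower level (log2 −0.48, SE 0.10) and log2 −0.69 without that library. Tfpi, the inhibitor, lay at 6.53 to 7.97 CPM untreated and 5.64 to 7.67 CPM with VIP, and the groups overlapped (log2 −0.30, SE 0.23; log2 −0.34 without that library).

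By the edgeR call used for all genes (adjusted p at most 0.05), 5 of the 6 members that passed the filter on low counts were called here, 4 higher and 1 lower. Over all 12727 genes tested, 4.82% were called, 3.72% higher and 1.10% lower. Since this comparison chose members, nothing is read from that count. Leaving out the first library of VIP-treated mouse 3 in place of the second, chosen after seeing the data, left no gene called by edgeR (720 at an unadjusted p under 0.05), and the members' differences were then log2 1.19 for F3, 0.82 for Plaur, 0.91 for Cd55, 1.08 for Plat, −0.27 for Plgrkt and −0.23 for Tfpi. Without the mouse as a term, 2 members were called, beside 99 of all 12727 genes. Summed goblet cell markers moved in the same samples, from 5905 ± 755 CPM (SD, n = 3) untreated to 8541 ± 689 CPM (SD, n = 4) with VIP. They were 8886 ± 1128 CPM without the second and 7993 ± 1080 CPM without the first library of mouse 3. With all libraries, epithelial markers went from 6714 ± 436 to 8520 ± 375 CPM, p53 target genes from 633 ± 28.3 to 779 ± 110 CPM and tuft markers from 12.5 ± 1.08 to 8.45 ± 0.916 CPM. Stem, Paneth, enterocyte and enteroendocrine sums overlapped between the groups. The part of these shifts in the members' differences was not tested.

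**Figure D1:**
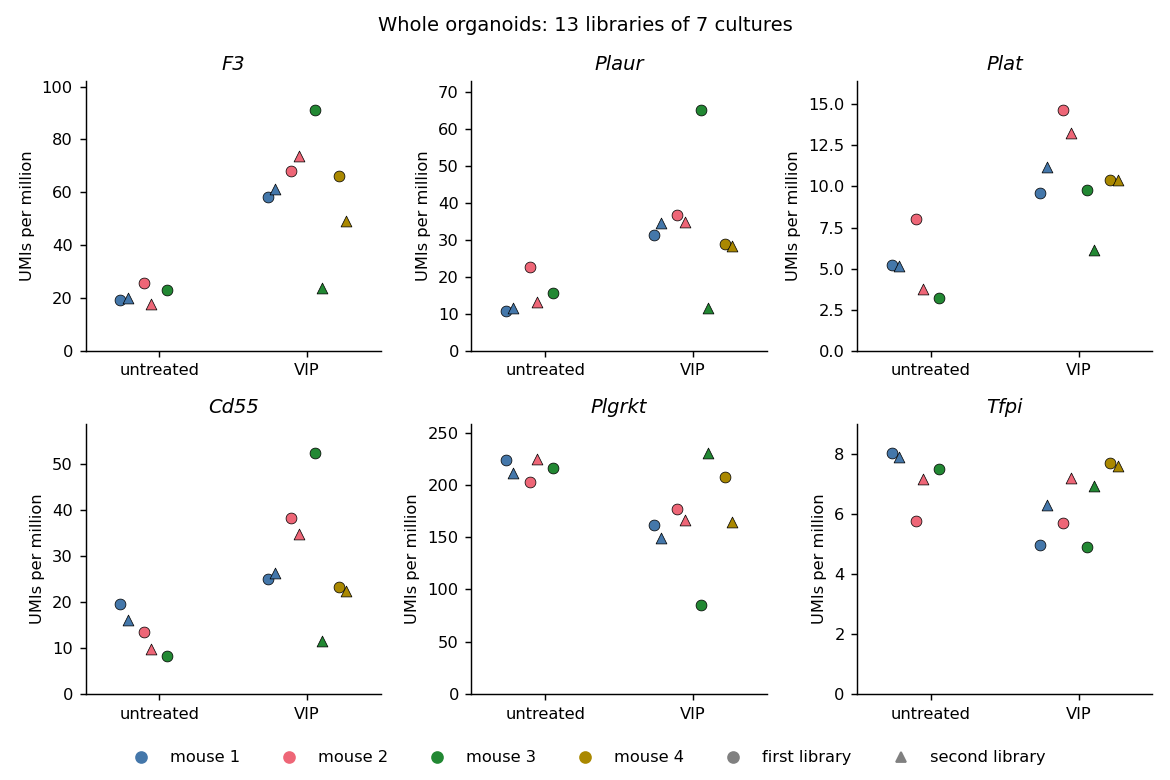
Level of 6 members in each of the 13 whole-organoid libraries (vertical axes, CPM; colours, mice; circles and triangles, first and second library of a culture). The green symbols with VIP are the 2 libraries that stood apart: in the second, F3 of 23.7 and Plaur of 11.4 CPM lie among the untreated libraries, and the first has the highest values, 91.1 and 65.1 CPM.

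In Lgr5-EGFP+ cells treated with VIP for 72 h without irradiation, Plgrkt was again lower, Tfpi overlapped between the groups, and F3, Plaur, Plat and Cd55 had at most 8 UMIs per sample. Plgrkt was 202, 197, 207 and 242 CPM in untreated and 121, 139, 124 and 117 CPM in VIP-treated samples. The groups did not overlap, and the level was 1.72-fold lower with VIP (log2 −0.78, SE 0.15). Plgrkt and Tfpi were the members that passed the filter, and Plgrkt was called lower, where 0.0885% of 6778 genes were called and 0.0295% were called lower. Nothing is read from this, since Plgrkt was known from this comparison. The call was lost without mouse 1, without mouse 4, in DESeq2 and without the mouse as a term.

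F3 was counted 0 to 5 times per sample here, Plat 0 to 6 times and Cd55 2 to 5 times, so that they did not pass the filter. Plaur did not pass it either, with 5 to 8 UMIs untreated and 3 to 6 UMIs with VIP. It was 8.44, 9.25, 8.22 and 12.7 CPM untreated and 5.43, 6.95, 5.11 and 6.34 CPM with VIP, and the groups did not overlap. It was lower with VIP in 4 of 4 mice, whereas in whole organoids it was higher, and no test was made of the one against the other. Tfpi had 8 to 18 UMIs per sample, at 16.9 to 29.6 CPM untreated and 13.6 to 22.2 CPM with VIP, and its groups overlapped (log2 −0.36, SE 0.34). Plau was not analysed here.

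The irradiation experiment asked how VIP and radiation act on these cells, alone and together. In it the members split by condition: F3 and Plaur followed irradiation, Plgrkt was lower with either treatment alone, and Tfpi did not pass a test in any comparison. There were 5 members that passed the filter on low counts (F3, Plaur, Plgrkt, Tfpi and Cd55), and Plat and Plau did not.

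With VIP alone Plgrkt fell in all 4 mice. It was 197, 227, 213 and 216 CPM in mice 1 to 4 without treatment and 115, 116, 122 and 125 CPM with VIP. The 2 groups were separate, with little spread within each. The level was 1.79-fold lower with VIP (log2 −0.84, SE 0.09, edgeR, adjusted p = 3.59e-05), and the adjusted p was 4.01e-15 to 0.00244 over the alternatives tried. Plgrkt was the single member called of 5 tested, where 0.742% of 9976 genes were called and 0.261% were called lower. In the same samples the stem cell marker sum went from 3840 ± 402 to 5364 ± 215 CPM (SD, n = 4 each), of which Olfm4 averaged 2952 and 4369 CPM. The Paneth cell sum went from 11638 ± 1998 to 8956 ± 569 CPM (SD, n = 4 each). The part of these shifts in the fall of Plgrkt was not tested.

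The members that were higher with VIP in whole organoids did not pass the test in these cells. F3 averaged 14.8 ± 3.9 CPM without and 16.1 ± 3.58 CPM with VIP (SD, n = 4 each), with a difference of log2 0.11 and a 95% interval of −0.39 to 0.61 (edgeR, adjusted p = 0.918). Plaur averaged 13.9 ± 1.5 and 16.6 ± 9.0 CPM, and the VIP samples included a value of 29.4 CPM in mouse 3 beside 9.76 to 16.4 CPM in the others. The interval of its log2 difference was −0.32 to 0.81 (edgeR, adjusted p = 0.809). For Cd55 it was −0.76 to 0.54 (edgeR, adjusted p = 0.941). These misses do not show that the levels were alike.

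Irradiation raised F3 in cells without VIP. F3 was 19.5, 13, 16.1 and 10.5 CPM in non-irradiated cells of mice 1 to 4 and 25.3, 21.6, 39 and 34.8 CPM in irradiated cells. Every irradiated sample was above every non-irradiated sample. The level was 1.99-fold higher (log2 0.99, SE 0.22, edgeR, adjusted p = 0.00694), and F3 was higher in 4 of 4 mice. Without mouse 3 or without mouse 4 the call was lost (adjusted p = 0.0789 and 0.118 in edgeR).

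Plaur rose with it. It was 15.1, 11.7, 14.5 and 14.4 CPM before and 32.9, 36.6, 28.8 and 39.2 CPM after irradiation, and the groups were well apart. The rise was 2.55-fold (log2 1.35, SE 0.24, edgeR, adjusted p = 9.46e-04) and held in every alternative, with an adjusted p of at most 0.0159.

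Plgrkt, which VIP lowered, was also lower after irradiation without VIP, at 187, 172, 144 and 133 CPM against 197 to 227 CPM. Mice 3 and 4 had the lowest irradiated levels and mouse 1 the smallest change. The difference was 1.33-fold (log2 −0.41, SE 0.09, edgeR, adjusted p = 0.00736) and missed the threshold when mouse 3 or mouse 4 was left out (adjusted p = 0.104 and 0.128 in edgeR). The irradiated samples without VIP of mice 3 and 4 had the fewest UMIs of the experiment, 1075715 and 1122223. They also had the highest F3 of their condition, and the part of depth was not tested. Cd55 was 7.21 to 8.79 CPM before and 9.41, 10.5, 8.37 and 21.4 CPM after irradiation, where mouse 4 stood far above the other 3 (log2 0.62, SE 0.29, edgeR, adjusted p = 0.268). In all, 3 of 5 members tested were called, 2 higher and 1 lower, beside 4.46% of 9976 genes called, 2.87% higher and 1.59% lower. Without mouse 3 or without mouse 4 only Plaur was called, beside 212 of 10036 and 176 of 10011 genes in all.

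Irradiation of VIP-treated cells raised F3, Plaur and Cd55. F3 was 16.5, 14.9, 12.1 and 20.7 CPM with VIP alone and 31.4, 37.6, 44.1 and 38.8 CPM with VIP and irradiation. The groups did not overlap, and the rise was 2.33-fold (log2 1.22, SE 0.21, edgeR, adjusted p = 3.58e-04), past the threshold in every alternative.

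Plaur was 9.76, 16.4, 29.4 and 11 CPM with VIP alone and 24.5, 22.4, 40.6 and 41 CPM after irradiation. The groups overlapped because of mouse 3, but each mouse had the higher level after irradiation (log2 0.95, SE 0.24, edgeR, adjusted p = 0.0108). Without mouse 4 the adjusted p in edgeR was 0.194.

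Cd55, the complement regulator, was 6.76, 8.21, 8.31 and 6.09 CPM with VIP alone and 15.5, 14.4, 12.4 and 19.9 CPM after irradiation. All irradiated samples were above the others, from 9 to 13 UMIs per sample to 18 to 37 UMIs. The rise was 2.10-fold (log2 1.07, SE 0.28, edgeR, adjusted p = 0.0144). It was not past the threshold in DESeq2, without mouse 1 or without mouse 4 (adjusted p = 0.10 in DESeq2, 0.0541 and 0.129 in edgeR). Plgrkt, already at 115 to 125 CPM with VIP, was 121 to 159 CPM after irradiation (log2 0.17, SE 0.10, edgeR, adjusted p = 0.324). Here 3 of 5 members were called, all higher, beside 7.78% of all genes called and 4.32% called higher. Without mouse 4 only F3 was called, beside 426 of 10011 genes in all.

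**Figure D2:**
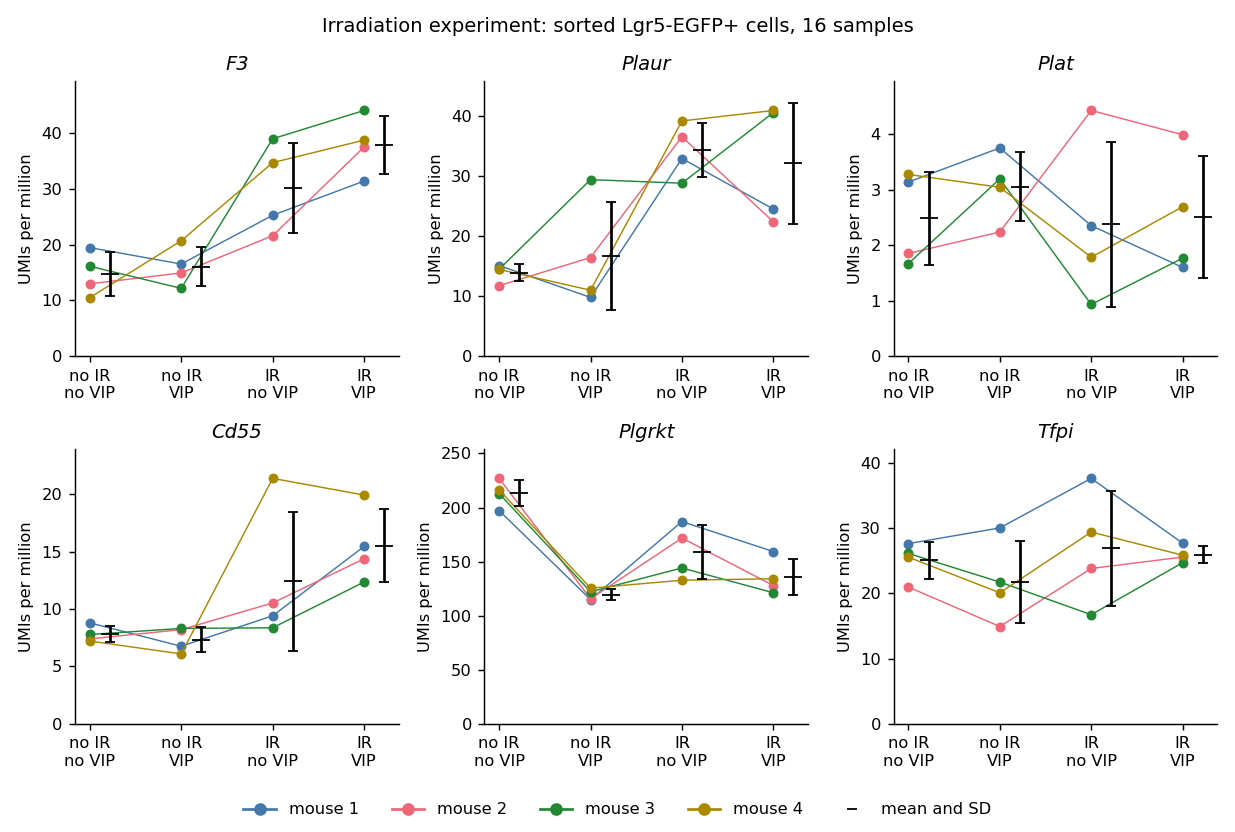
Level of 6 members in each sample of the irradiation experiment (vertical axes, CPM; lines join the 4 cultures of a mouse; black bars, mean and SD of 4 samples; IR, irradiation). F3 and Plaur are higher in the 2 irradiated conditions, Plgrkt is highest in the cells given neither treatment, and Plat and Tfpi show no common direction.

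In irradiated cells VIP changed no member past the threshold, where 0.221% of 9976 genes were called; of the 5 tested, Plgrkt had an unadjusted p under 0.05 (0.0138 in edgeR), and DESeq2 called none. F3 averaged 30.2 ± 8.10 CPM without and 38 ± 5.21 CPM with VIP (SD, n = 4 each) and was higher in 4 of 4 mice, but its log2 difference of 0.34 had a 95% interval of −0.05 to 0.73 (edgeR, adjusted p = 0.931). Plaur averaged 34.4 ± 4.51 and 32.1 ± 10 CPM (log2 −0.16, edgeR, adjusted p = 0.975).

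Plgrkt averaged 159 ± 24.9 CPM in irradiated cells without VIP and 136 ± 16.6 CPM with it. The difference of log2 −0.25 (SE 0.10) was less than that in non-irradiated cells and did not pass (edgeR, adjusted p = 0.624). The difference between the 2 VIP effects was itself tested as an interaction. It was log2 0.59 (SE 0.13), with a range of 0.53 to 0.77 over the 4 mice and an unadjusted p of 2.05e-04 in edgeR, which after adjustment over all genes was 0.543. So no difference between irradiated and non-irradiated cells was shown at the threshold set. No gene passed this interaction test in edgeR (0% of 9976, 634 at an unadjusted p under 0.05; 3 genes in DESeq2). With all genes kept, irrespective of low counts, Plgrkt passed it (adjusted p = 0.0138 in edgeR), and over all alternatives the adjusted p ran from 0.0138 to 1.

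**Figure D3:**
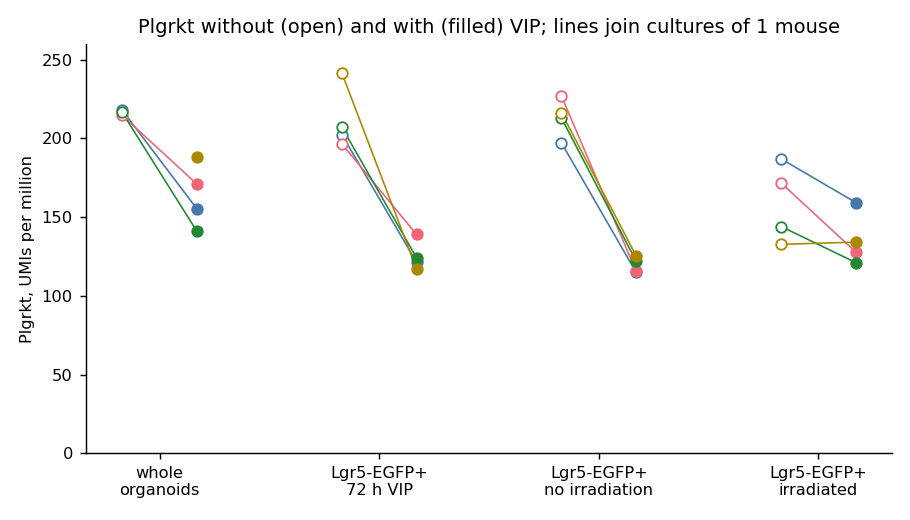
Plgrkt level (vertical axis, CPM) in each culture without VIP (open) and with VIP (filled) in the 3 experiments, the last one split by irradiation; lines join cultures of 1 mouse. Untreated cultures lie at 197 to 242 CPM and VIP-treated ones at 115 to 188 CPM outside the irradiated cells, where the levels without VIP were 133 to 187 CPM.

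The inhibitor Tfpi was 14.9 to 37.6 CPM over the 16 samples. Its group means were 25.1 ± 2.87 CPM with neither treatment, 21.7 ± 6.27 CPM with VIP, 26.9 ± 8.84 CPM after irradiation and 26 ± 1.26 CPM after both (SD, n = 4 each), and the groups overlapped. The adjusted p in edgeR was 0.477 to 0.985 over the 4 comparisons. Plat had 1 to 8 UMIs per sample, at group means of 2.37 to 3.06 CPM. Plau had 10 UMIs in all 16 samples, 6 of them in irradiated cells without VIP (4 in mouse 2), 2 after both treatments and 1 in each other condition. Neither activator was tested.

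The order of the levels within the irradiation experiment was Plgrkt first, then Tfpi, F3, Plaur, Cd55, Plat and Plau in the cells given neither treatment. Tfpi, at 21 to 27.6 CPM, lay above F3 and Plaur, and the last 2 did not differ beyond their spread (10.5 to 19.5 and 11.7 to 15.1 CPM). After irradiation alone Plaur, F3 and Tfpi overlapped, at 28.8 to 39.2, 21.6 to 39 and 16.7 to 37.6 CPM. In whole organoids without VIP the order was Plgrkt, F3, Plaur, Cd55, Tfpi, Plat and Plau, and Plaur and Cd55 overlapped. F3 in untreated cells differed between the 2 sorted experiments, at 0 to 5.78 CPM in the first and 10.5 to 19.5 CPM in the second, a difference between experiments that was not tested. In the same samples 12 listed genes of the response to cell handling, Fos and Jun among them, summed to 397 to 832 CPM in the first and 1559 to 1918 CPM in the second. Their part in this difference was not tested.

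**Figure D4:**
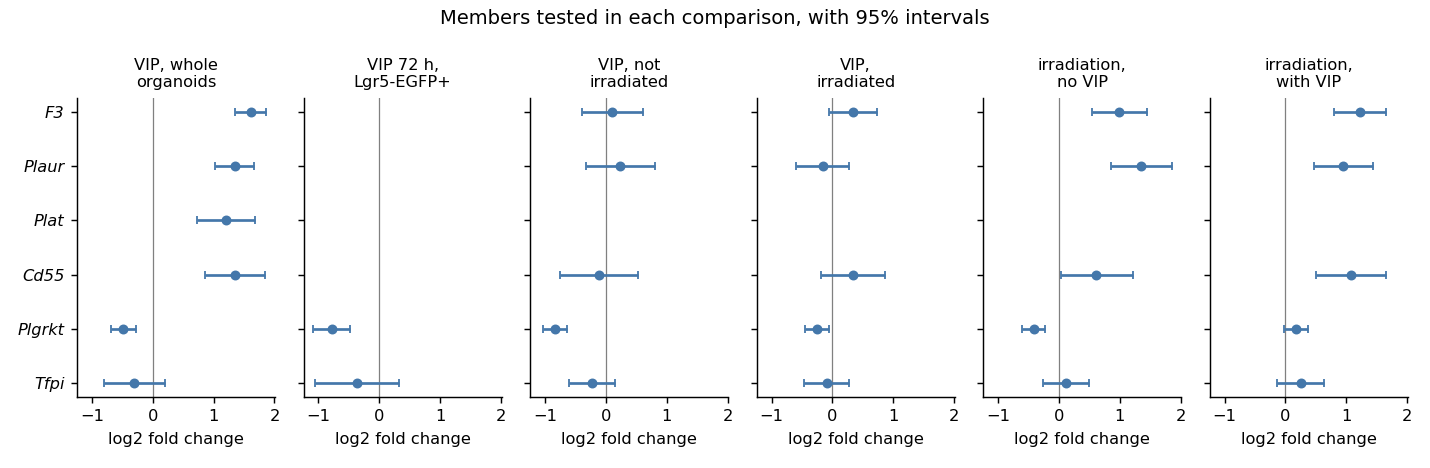
Log2 fold change of each member that passed the filter on low counts (points; bars, 95% intervals of the edgeR fit) in 6 comparisons, VIP minus untreated in the first 4 panels and irradiated minus non-irradiated in the last 2. The whole-organoid and 72 h panels are descriptions, since members were chosen on them; F3 and Plaur lie to the right of 0 in whole organoids and under irradiation, and Plgrkt to the left with VIP, including irradiated cells, where its call was not reached.

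Other values moved with irradiation in the same samples. The check of the treatment itself was positive: 10 listed p53 target genes summed to 974 ± 89.9 CPM without and 1893 ± 160 CPM with irradiation (SD, n = 4 each), and 757 ± 86.8 and 1925 ± 141 CPM in VIP-treated cells. Paneth cell markers summed to 11638 ± 1998 CPM before and 21735 ± 5690 CPM after irradiation, and 8956 ± 569 and 15036 ± 1041 CPM with VIP. Enteroendocrine markers went from 2728 ± 301 to 4885 ± 1322 CPM, and from 2515 ± 1172 to 6189 ± 1782 CPM with VIP. Goblet cell markers went from 6468 ± 1303 to 9239 ± 1331 CPM, and from 5133 ± 238 to 7410 ± 952 CPM with VIP. Enterocyte markers went from 1111 ± 155 to 1673 ± 574 CPM, and from 768 ± 124 to 978 ± 52.2 CPM with VIP. The stem cell marker sum went the other way, from 3840 ± 402 to 2683 ± 163 CPM, and from 5364 ± 215 to 3368 ± 282 CPM with VIP. Most of this sum was Olfm4, at means of 2952 and 1871 CPM without VIP and 4369 and 2431 CPM with it. Ascl2 and Smoc2 also fell, with and without VIP. Lgr5 averaged 20.4 and 20.9 CPM without VIP and 29.1 and 23.8 CPM with it. Axin2, Rnf43, Slc12a2 and Cd44 did not fall in either case. The part of these shifts in the rise of F3, Plaur and Cd55 was not tested.

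Cells outside the epithelium, which also use these genes, were hardly present by their markers. Of 7 fibroblast markers 6 were in the table, and their sum of 11 to 74.2 CPM was nearly all Vim, with a mean of 19.2 CPM without and 48.4 CPM with irradiation in cells without VIP. Col1a1, Col1a2, Pdgfra and Dcn had 0 to 2 UMIs in each condition over its 4 samples. Leukocyte markers summed to 16.4 to 32.7 CPM (7 of 8 in the table) and endothelial markers to 8.91 to 23.4 CPM (4 of 7), with Ptprc at 0 to 5 and Cdh5 at 0 or 1 UMIs per condition. In whole organoids the fibroblast list summed to 7.42 to 11.4 CPM.

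Around the members, 78 further genes of coagulation, plasminogen and complement regulation had been listed, and these lists too were drawn up with earlier results of the study known. The adjusted p-values of listed genes therefore describe the edgeR fit and are not independent tests. Most of the 32 coagulation genes did not pass the filter on low counts. In whole organoids 9 passed it, and Vkorc1, the vitamin K epoxide reductase, was called lower (edgeR, adjusted p = 0.0491, and 0.0144 without the second or 0.883 without the first library of VIP-treated mouse 3). That was 1 of 9 genes, beside 1.10% of all genes called lower, and nothing particular to the list is read from it. In the irradiation experiment 5 passed the filter and none was called, beside 0 to 7.78% of all genes per comparison. Fewer still, 4, were tested in the first sorted experiment.

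Of the plasminogen list of 29 receptor, inhibitor and substrate genes, 17 were tested with VIP in whole organoids. Of these 5 rose and none fell, beside 3.72% of all genes called higher there, and the median was log2 0.21 beside −0.004 for all genes. Since earlier results were known when the list was drawn up, nothing particular to it is read from this count. Anxa2, which with S100a10 forms a plasminogen receptor on the cell surface, went from 719 ± 67.4 CPM (SD, n = 3) to 1425 ± 213 CPM (SD, n = 4; log2 1.0, edgeR, adjusted p = 2.62e-05). S100a10 itself went from 442 ± 26.1 to 679 ± 60.3 CPM (log2 0.66, edgeR, adjusted p = 0.00144). Ahnak, a large scaffold protein that binds S100a10, rose from 37.2 ± 17.5 to 98.4 ± 42.8 CPM (log2 1.5, edgeR, adjusted p = 6.77e-06). Hgfac, the protease that activates hepatocyte growth factor, rose by log2 0.81 (edgeR, adjusted p = 0.00332). Without the second library of VIP-treated mouse 3 these 4 values were log2 1.11, 0.75, 1.55 and 0.85, all past the threshold. None of the 4 calls was kept without the first library of VIP-treated mouse 3 (edgeR, adjusted p = 0.114 to 0.876), and that of Ahnak was also lost without the mouse as a term (adjusted p = 0.182 in edgeR).

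In Lgr5-EGFP+ cells none of 11 tested genes of this list was called with VIP at 72 h (0.0885% of all genes were), and 1 of 16 was called in non-irradiated cells of the irradiation experiment (0.742% of all genes). The gene called was Eno1, a glycolytic enzyme that also binds plasminogen at the surface, which rose from 125 ± 13.6 to 255 ± 96.5 CPM (SD, n = 4 each; log2 0.99, edgeR, adjusted p = 2.31e-04). Eno1 has near-identical copies in the genome, so its count is uncertain. In irradiated cells none of the 16 was called with VIP. At 72 h Anxa2, S100a10 and Ahnak were each higher in 3 of 4 mice, and no test of the difference from whole organoids was made.

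With irradiation of cells without VIP, 8 of 16 rose and none fell, beside 2.87% of all genes called higher (median log2 0.45, beside −0.004 for all genes). With VIP 7 rose and 2 fell, beside 4.32% of all genes called higher (median log2 0.39, beside 0.001). As the list was drawn up with earlier results known, nothing particular to it is read from these shares. Ahnak rose from 12.3 ± 5.78 to 32.4 ± 7.03 CPM without VIP (log2 1.43, edgeR, adjusted p = 2.18e-04) and by log2 1.28 with it (edgeR, adjusted p = 5.64e-04). Thbs1, the matrix glycoprotein thrombospondin-1, rose from 5.93 ± 1.84 to 15.8 ± 4.10 CPM (log2 1.38, edgeR, adjusted p = 0.00193). Igf2r, a scavenging receptor that binds plasminogen and the urokinase receptor, rose by log2 0.96 (edgeR, adjusted p = 0.00589). This call was not kept without mouse 2 or without mouse 4 (edgeR, adjusted p = 0.0726 and 0.0865).

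Mmp7, a matrix protease that Paneth cells make, rose from 178 ± 49.2 to 329 ± 87.1 CPM without VIP (log2 0.88, edgeR, adjusted p = 2.95e-04) and by log2 0.74 with VIP (edgeR, adjusted p = 0.00222), beside the Paneth marker sums given above. With VIP, Anxa2 rose from 447 ± 72.6 to 608 ± 71 CPM (log2 0.44, edgeR, adjusted p = 0.00276), a call lost without mouse 3 (edgeR, adjusted p = 0.0558). Eno1 fell by 0.83 on the log2 scale, from 255 ± 96.5 to 139 ± 24.7 CPM (edgeR, adjusted p = 1.65e-04).

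**Figure D5:**
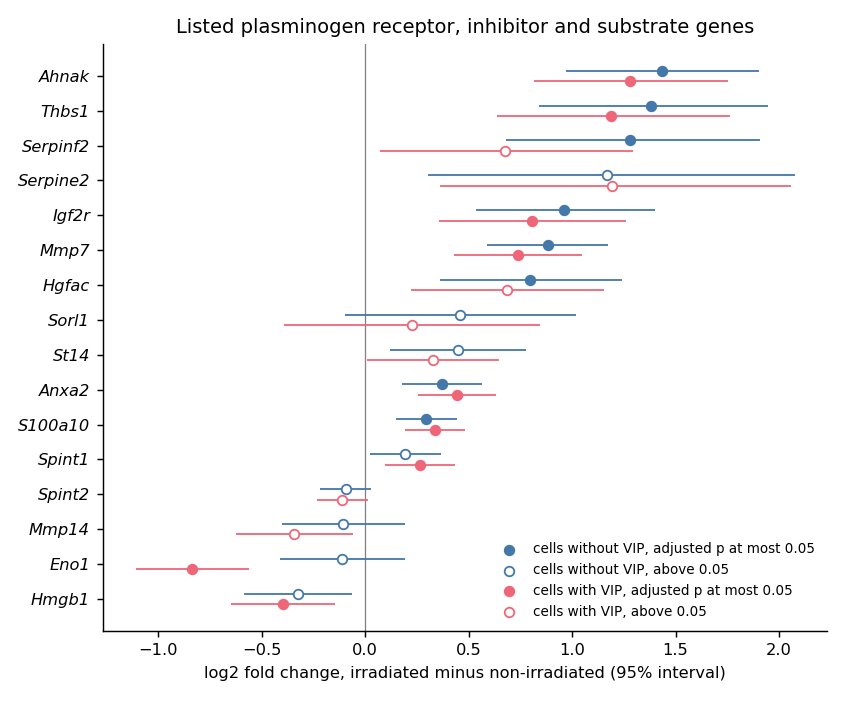
Log2 fold change with irradiation (horizontal axis; bars, 95% intervals) of the 16 tested genes of the plasminogen list in cells without VIP (blue) and with VIP (red); filled points are adjusted p at most 0.05 in edgeR. Ahnak, Thbs1, Igf2r, Mmp7, Anxa2 and S100a10 are filled on the right in both, and Eno1 and Hmgb1 are filled on the left in VIP-treated cells.

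Of the 17 complement genes 5 were tested in whole organoids and 5 in the irradiation experiment. Clu, the chaperone clusterin that also blocks the terminal complement complex, was called in the same 3 comparisons as C4bp, the C4b-binding protein. In each, 2 of the 5 were called, both higher. The shares of all genes called higher were 3.72% with VIP in whole organoids, and 2.87% and 4.32% with irradiation without and with VIP. Since earlier results were known when the list was drawn up, nothing particular to it is read from these counts. With VIP in whole organoids Clu rose from 24.1 ± 10.3 to 77.7 ± 22.4 CPM (log2 1.93, edgeR, adjusted p = 7.85e-06). With irradiation it rose from 38.2 ± 10.8 to 81.7 ± 27.2 CPM without VIP (log2 1.1, edgeR, adjusted p = 0.00180) and by log2 1.14 with VIP (edgeR, adjusted p = 0.00117). The whole-organoid call was lost without the first library of VIP-treated mouse 3 and without the mouse as a term (edgeR, adjusted p = 0.929 and 0.0548), and that of irradiation without VIP was lost without mouse 2 (edgeR, adjusted p = 0.0766). Without the second library of that culture Clu was at log2 2.16. C4bp was higher in all 3 comparisons, at log2 0.75 in whole organoids, 0.80 without the second and 0.68 without the first library of VIP-treated mouse 3, where its call was lost (edgeR, adjusted p = 0.739).

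The genes most like Plgrkt in their pattern were Micos13, Mrps11 and Mrpl30, with Pearson's r of 0.898, 0.872 and 0.854 over 30 samples among 6730 genes, on log2 CPM centred on each mouse. The 30 samples share mice and, within an experiment, treatments, so these values are a description. For Tfpi the nearest were Snhg15, Fam149b and Polr3d, with r of 0.808, 0.793 and 0.786. The other members had too few counts in the first sorted experiment for this comparison.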

How the data were processed

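Counts of UMIs per gene were deposited as 3 tables, 1 for each experiment; the authors made these raw counts from 3′ RNA libraries with the Drop-seq pipeline on GRCm38, and did not normalize them. The members and gene lists were chosen with earlier results of these data known. Libraries of 1 culture were added up. Each table was fitted with edgeR 4.0.16 in R 4.3.3 (quasi-likelihood test, TMM factors, filterByExpr by group, Benjamini-Hochberg over all genes tested, threshold 0.05), with the mouse as a block, since cultures with the same number come from 1 organoid line; all 16 samples of the irradiation experiment entered 1 fit. Deviations from group means correlated between samples of a mouse with a median of 0.678 in whole organoids, 0.142 at 72 h and 0.063 in the irradiation experiment, and −0.195, −0.056 and −0.019 between mice, over 6730 genes. Centring on group means pulls the values between mice to the opposite sign, so they are not a separate check. DESeq2 1.42.0, other scalings and filters, no block and each mouse left out were the alternatives. Of other pathway genes, at most the 5 called with the smallest p per comparison are named. Vkorc1, C4bp and genes named from the plot of the plasminogen list were chosen after their values were seen. Replicates are mice, and p-values measure the spread between these cultures. The code was tested on simulated data. Log2 CPM used a prior count of 2; levels in CPM use library totals. Gene positions are from GENCODE M21, which held 96.8% of the symbols.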

Additional observations from a re-analysis of the deposited data

Results flagged for a closer look

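In 5 cases a value stood far from the other samples of their group of 4, by a gap to the nearest sample that took up more than the critical share of the group's range; 47 groups were looked at, and chance alone flags about 1 in 20. Cd55 in irradiated cells without VIP was 21.4 CPM in mouse 4, where the other 3 mice had 8.37 to 10.5 CPM. Cd55 in untreated cells of the first sorted experiment was 4.93 CPM in mouse 3 and 3.18 to 3.47 CPM in the others, which is 3 UMIs against 2 or 3. The remaining 3 values were single UMIs of Plau beside samples at 0, at 0.751 CPM in non-irradiated VIP-treated cells of mouse 1, 0.556 CPM in non-irradiated untreated cells of mouse 3 and 0.183 CPM in VIP-treated whole organoids of mouse 4. A single UMI beside samples at 0 always fills the whole range, so the rate of 1 in 20 does not apply to these 3.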

How the results depend on the processing

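The number of members called moved by over 1.5 times in these cases. In whole organoids it was 5, against 2 with no replicate block and 0 without the first library of VIP-treated mouse 3. That last alternative was chosen after seeing the data, and leaving out a mouse gave 4 to 5. Over all genes 614 were called, against 99 with no replicate block and 0 without that first library. At 72 h in sorted cells 1 member was called, against 0 in DESeq2 and 0 with no replicate block. With a mouse left out it was 0 to 1. Over all genes there were 6, against 2 and 1, and 3 to 17 with a mouse left out. For irradiation 3 members were called in cells without and 3 in cells with VIP, and 1 to 3 in each with a mouse left out. Over all genes there were 445 without VIP (176 to 643 with a mouse left out) and 776 with VIP (426 to 691). For the interaction 0 members were called, against 1 with no filter on low counts, where 34 genes in all were called. The replicate block changed no other count of members. Non-significant differences changed sign in 5 cases, all with a mouse left out: F3 (log2 −0.16 to 0.27) and Plaur (−0.17 to 0.46) with VIP in non-irradiated cells, and Tfpi with VIP in irradiated cells (−0.22 to 0.066), with irradiation alone (−0.020 to 0.30) and in the interaction (−0.013 to 0.43). Of the other alternatives for single members, 343 kept direction and side of the threshold or moved by less than 1 SD, 8 lost and 1 gained the threshold in the irradiation experiment, and 5 values in the 2 comparisons without a test moved by more. In those 2, calls were lost in 10 cases in whole organoids (5 without the first library of VIP-treated mouse 3, 3 with no replicate block, Plat in DESeq2 and Plgrkt without mouse 1) and in 4 at 72 h (Plgrkt). The causes were not tested. Depth limits F3, Plaur, Plat and Cd55 at 72 h; Plau is under a few UMIs throughout.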
